A study of Mus musculus with 15 samples.

Results

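The 8 genes described here encode proteins of the cartilage matrix, with the transcription factor that drives cartilage formation: Acan, Hapln1, Prg4, Comp, Chad, Cilp, Cilp2 and Sox9. They were taken by name, and 8 of 8 names were found among the 18073 genes of the deposited table. The animals were C57BL/6 mice, 2 months old, and each gave 1 RNA-seq library from its 3 aortic valve leaflets after 20 minutes in collagenase. The first group was wild type for Notch1 and for Terc, so with long telomeres (4 mice). The second was heterozygous for Notch1 and wild type for Terc (4 mice). The third was wild type for Notch1 and generation 2 null for Terc, so with short telomeres (3 mice), and the fourth was heterozygous for Notch1 on the same Terc null background (4 mice). They are called long-telomere wild type, long-telomere heterozygous, short-telomere wild type and short-telomere heterozygous below. Terc is the RNA template of telomerase, and the labels do not describe the mutant Notch1 allele.

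Aortic valve leaflets are layered connective tissue, kept up by interstitial cells under a sheet of endothelium. Leaflets share part of their matrix programme with cartilage: large proteoglycans bound to hyaluronan hold water and resist compression, and smaller proteins tether them to collagen. Sox9 acts in cartilage as the master regulator of this programme and is needed for the formation of heart valves. Notch1 is a cell surface receptor that instructs valve cells during development, and the study set 1 lost copy of it against long and against short telomeres.

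The table gives 1 FPKM value (fragments per kilobase of transcript and 1000000 fragments) per gene and group, so no error can be given for any value, and the spread between mice and the depth of each library are unknown. For 5 pairs of groups it also marks the genes that the authors called different, and "fell" is written below only of these calls. A log2 fold is the difference in log2(FPKM + 1), which understates the change of low values. The comparisons share groups and are not independent of each other. Terc was at 1.42 and 4.52 FPKM in long-telomere wild type and heterozygous valves and was listed at 0 with short telomeres. Notch1 stood at 39.1, 25.1, 16.6 and 23.3 FPKM in the 4 groups in the order above, higher in the short-telomere group labelled heterozygous than in the one labelled wild type. The short-telomere groups are therefore named by their labels. Markers of interstitial cells and endothelium were present, with Dcn between 2255 and 4698 FPKM and Pecam1 between 96.1 and 146 FPKM. Heart muscle RNA was present too, with Tnnt2 between 1172 and 1489 FPKM and Actc1, which varied more, between 758 and 2251 FPKM. In bulk tissue, fewer cells of a type and less RNA per cell cannot be told apart.

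RNA of the 8 genes was found in the leaflets at unequal levels. Prg4, Chad, Comp, Sox9, Cilp and Hapln1 had mean levels over the 4 groups of 231, 111, 73.5, 43.3, 26.9 and 27.5 FPKM, whereas Cilp2 and Acan had 4.83 and 1.45 FPKM. In long-telomere wild type valves Prg4 stood above 99.1% of all genes, Chad above 98.4% and Comp above 97.0%, and Acan above 38.1%. Col2a1, the main collagen of hyaline cartilage, was listed at 0.131, 0.104, 0.0170 and 1.64 FPKM in the 4 groups, a gene named here after its values were seen. The summed FPKM of the 8 genes was 653 in long-telomere wild type, 320.2 in long-telomere heterozygous, 470.3 in short-telomere wild type and 633 in short-telomere heterozygous valves. Prg4 and Chad weigh most in the first and last of these sums. They made up 38.6% and 24.3% of it in long-telomere wild type and 44.0% and 26.3% in short-telomere heterozygous valves.

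**Figure D1:**
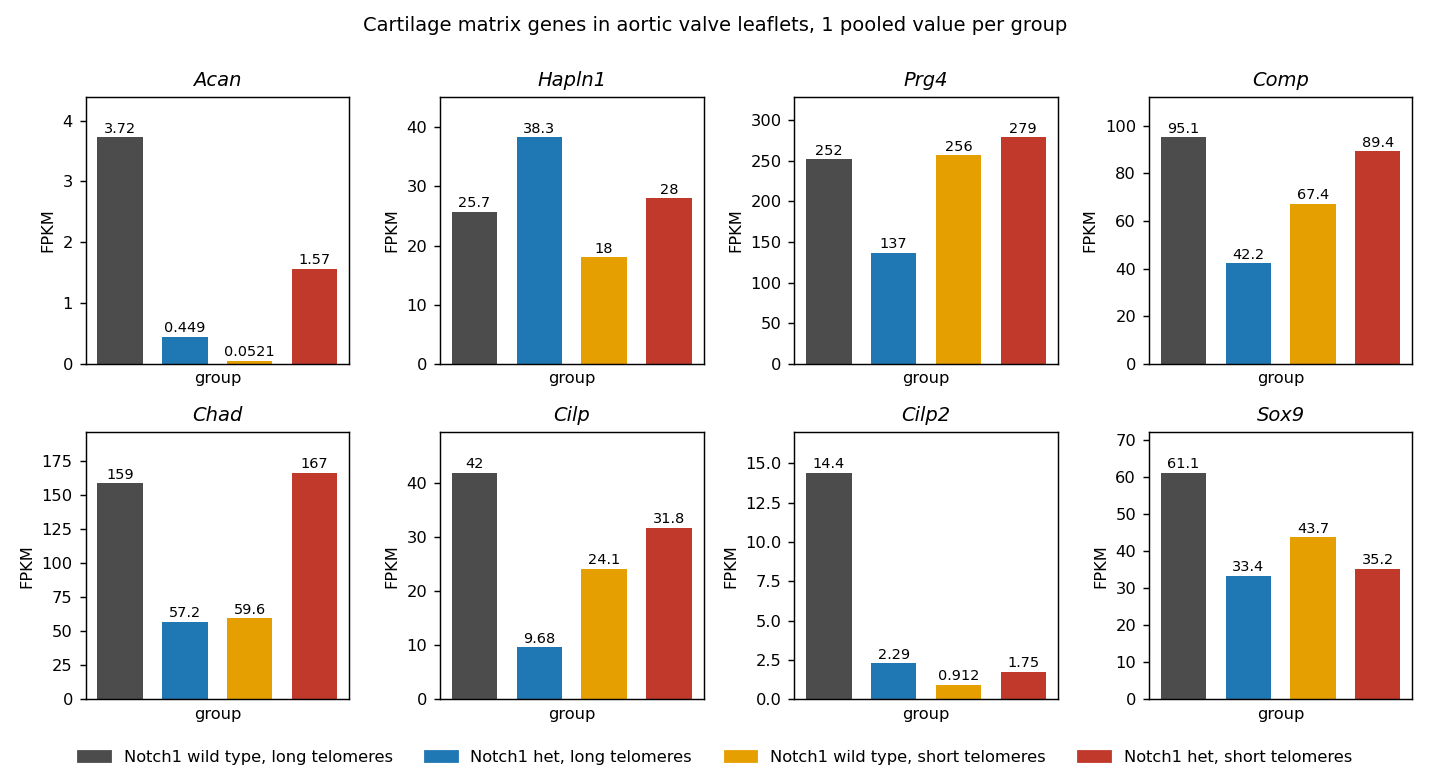
FPKM of each of the 8 genes (vertical axes from 0, a separate scale for each gene) in the 4 groups, with 1 bar for the authors' pooled value of each group and no error. Acan and Cilp2 were highest in long-telomere wild type valves at 3.72 and 14.4 FPKM, while Chad was at 159 and 167 FPKM in the groups with neither and both changes and at 57.2 and 59.6 FPKM in the groups with 1 change.

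Aggrecan and its link protein did not follow the same order of groups. Acan (ENSMUSG00000030607) encodes aggrecan, the large chondroitin sulphate proteoglycan that gives cartilage its resistance to compression. It stood at 3.72 FPKM in long-telomere wild type valves, 0.449 FPKM in long-telomere heterozygous valves, 0.0521 FPKM in short-telomere wild type valves and 1.57 FPKM in short-telomere heterozygous valves. The highest group was thus 71.4-fold above the lowest. In the authors' deposited table Acan fell with short telomeres in Notch1 wild type valves, a log2 fold of -2.17, and was not called in the other 4 comparisons. With an exonic length of 7.47 kb in GENCODE annotation of GRCm38, the lowest value corresponds to about 0.389 fragments in 1000000 and the highest to 27.8, so the low end of Acan rests on few fragments. The ratio of 8.30 between long-telomere wild type and heterozygous valves was not called.

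Hapln1 (ENSMUSG00000021613) encodes the link protein that locks aggrecan and versican onto hyaluronan. It was at 25.7, 38.3, 18.0 and 28.0 FPKM in the same order of groups. Here the long-telomere heterozygous group was the highest and the short-telomere wild type group the lowest, 2.12-fold apart, with 0 of 5 calls. Hapln1 was the single member that was higher in long-telomere heterozygous than in wild type valves, with a log2 fold of 0.55. The FPKM ratio of Acan to Hapln1 was 0.145 in long-telomere wild type, 0.0117 in long-telomere heterozygous, 0.00289 in short-telomere wild type and 0.0559 in short-telomere heterozygous valves. Vcan, which encodes versican, the large hyaluronan-binding proteoglycan of valves and vessels, was far above Acan in each group, at 189, 120, 136 and 99.97 FPKM. The ratio of Acan to Vcan was 0.0197, 0.00375, 0.000383 and 0.0157 in the same order of groups. The lowest ratios of Acan to Hapln1 and to Vcan rest on the few fragments of Acan in short-telomere wild type valves.

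Among 11 measured partners of this complex (Vcan and related proteoglycans, hyaluronan synthases, link proteins and hyaluronan-binding proteins), 0 were called in any of the 5 comparisons, in which between 0.415% and 0.686% of all genes were called, so that a count of 0 in a list of this size is near the background. In long-telomere heterozygous against wild type valves 8 of 11 were lower (median log2 fold -0.31), beside 43.6% and a median of 0.092 over all genes. With short telomeres 9 of 11 were lower in the group labelled heterozygous (median -0.44), beside 42.6% and a median of 0.056 over all genes. In that comparison 7 of the 8 cartilage genes were higher, beside 53.5% of all genes. Cd44, the hyaluronan receptor, ranged from 49.1 to 61.3 FPKM. Tnfaip6, which modifies hyaluronan during inflammation, ranged from 12.5 to 42.6 FPKM, with its highest value in short-telomere wild type valves.

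Of 10 measured genes for proteases that cut aggrecan or related matrix and for their inhibitors, 2 were called in the authors' deposited table. Adamts8, a secreted protease, was at 15.6, 21.9, 3.29 and 34.7 FPKM and was called higher in the short-telomere group labelled heterozygous than in the one labelled wild type, a comparison in which 0.476% of all genes were called. Mmp3, stromelysin, was at 6.41, 11.7, 34.0 and 47.9 FPKM and was called higher in the group with both changes than in the group with neither, where 0.526% of all genes were called. Adamts5 and Adamts4, the main aggrecanases of cartilage, are named for that role and not for their values. Adamts5 was at 9.96, 3.63, 7.76 and 6.06 FPKM and Adamts4 at 0.307, 0.449, 1.60 and 0.781 FPKM, without a call. Adamts1, a protease of the same family, was at 21.8, 20.6, 55.3 and 31.9 FPKM without a call, highest in short-telomere wild type valves. Timp3, the inhibitor of these aggrecanases, ranged between 355 and 480.3 FPKM.

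Cilp and Cilp2 encode cartilage intermediate layer proteins, a pair of related secreted glycoproteins, of which Cilp is known to bind and restrain TGF-beta. Cilp (ENSMUSG00000042254) stood at 42.0, 9.68, 24.1 and 31.8 FPKM. The long-telomere heterozygous group was lowest, 4.34-fold below the long-telomere wild type group, and no comparison was called. Cilp2 (ENSMUSG00000044006) stood at 14.4, 2.29, 0.912 and 1.75 FPKM. Long-telomere wild type valves were set apart from the other 3 groups, which lay within 0.912 to 2.29 FPKM. The authors' deposited table called Cilp2 lower with short telomeres in Notch1 wild type valves, by a ratio of 15.8 and a log2 fold of -3.01. It was not called for the ratio of 8.24 between the groups with both changes and with neither, or for the ratio of 6.27 between long-telomere heterozygous and wild type valves. The ratio of Cilp2 to Cilp went from 0.343 in long-telomere wild type and 0.237 in long-telomere heterozygous valves to 0.0378 and 0.0550 in the short-telomere groups labelled wild type and heterozygous. The paired genes therefore differed in which group was lowest.

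Acan and Cilp2 were the members called in the authors' deposited table, and Chad and Cilp the uncalled members with the widest spread, so the 250 bases before the start site of these 4 genes are shown, from RefSeq, build GRCm38.p6, read 5′ to 3′ on the gene's strand. They are chr7:79052976-79053225 (+ strand) for Acan, chr8:69887393-69887642 (- strand) for Cilp2, chr11:94564797-94565046 (+ strand) for Chad and chr9:65264930-65265179 (+ strand) for Cilp. Capitals mark TATAA, a core letter run of the TATA box, which was searched on the gene's strand after the sequences had been read.
Acan: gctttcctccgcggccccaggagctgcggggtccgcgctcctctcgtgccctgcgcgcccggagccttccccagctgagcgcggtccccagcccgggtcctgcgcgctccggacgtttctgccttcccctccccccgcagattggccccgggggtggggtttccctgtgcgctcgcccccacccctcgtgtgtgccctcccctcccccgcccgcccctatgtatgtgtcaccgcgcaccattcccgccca
Cilp2: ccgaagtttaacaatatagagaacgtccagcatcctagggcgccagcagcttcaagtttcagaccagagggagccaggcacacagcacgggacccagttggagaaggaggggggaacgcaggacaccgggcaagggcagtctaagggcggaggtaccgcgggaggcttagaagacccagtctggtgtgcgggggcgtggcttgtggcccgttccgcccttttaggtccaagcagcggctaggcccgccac
Chad: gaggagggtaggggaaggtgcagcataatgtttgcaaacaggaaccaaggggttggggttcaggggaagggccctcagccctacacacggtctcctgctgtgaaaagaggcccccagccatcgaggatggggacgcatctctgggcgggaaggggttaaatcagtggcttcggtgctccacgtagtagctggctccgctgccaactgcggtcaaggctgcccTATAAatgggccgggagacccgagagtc
Cilp: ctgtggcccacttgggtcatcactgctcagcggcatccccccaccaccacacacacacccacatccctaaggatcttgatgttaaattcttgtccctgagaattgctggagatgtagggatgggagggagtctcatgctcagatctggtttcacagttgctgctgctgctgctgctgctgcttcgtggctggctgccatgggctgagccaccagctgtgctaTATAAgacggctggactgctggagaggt
RefSeq windows were matched for 5 of the 8 genes (Acan, Cilp2, Chad, Cilp and Hapln1). TATAA was found in Chad and Cilp, its first base 28 bases before the start site in each, and in 16.0% of all 32851 windows of this length. It was not found in the windows of Acan, Cilp2 and Hapln1. The windows of Acan and Cilp2 held 26 and 15 CG pairs and those of Chad and Cilp 10 and 3, beside a median of 6 over all windows. The SOX-type runs ACAATG and ACAAAG and the RBPJ-type run GTGGGAA, each searched on both strands, were found in 0 of the 5 windows and in 10.7%, 16.5% and 5.42% of all windows. A match or its lack describes the letters of these windows and not the binding of a factor.

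Chad (ENSMUSG00000039084) encodes chondroadherin, a leucine-rich repeat protein that links chondrocytes to collagen through integrins. It stood at 159 FPKM in long-telomere wild type valves and 167 FPKM in short-telomere heterozygous valves, and at 57.2 and 59.6 FPKM in the long-telomere heterozygous and short-telomere wild type groups. The groups with neither or both changes were thus alike to within 1.05-fold, and so were those with 1 change, to within 1.04-fold. The 4 log2 folds between these pairs were -1.46, 1.47, -1.40 and 1.53, and 0 were called in the authors' deposited table.

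Comp (ENSMUSG00000031849), the pentameric thrombospondin that binds collagen fibres in cartilage and tendon, was at 95.1, 42.2, 67.4 and 89.4 FPKM. Prg4 (ENSMUSG00000006014), which encodes lubricin, the boundary lubricant of joint surfaces, was at 252, 137, 256 and 279 FPKM. Both were lowest in the long-telomere heterozygous group, by 2.25-fold and 2.04-fold against their highest group, with 0 of 5 calls each. Exons of Prg4 overlap those of Tpr on the opposite strand in GENCODE annotation, and the library kit does not keep the strand, so reads of the pair cannot be told apart where they overlap. Of the 8 genes Prg4 and Comp had the closest pair of patterns, with a root mean square difference of 0.184 between their centred log2(FPKM + 1) values over the 4 groups. The other thrombospondins were lower in long-telomere heterozygous than in wild type valves in 4 of 4 cases (median log2 fold -1.27, 0 called). Thbs4, found in tendon and heart, stood at 58.7, 13.7, 28.1 and 63.6 FPKM, with its lowest value in the same group as Comp. Thbs1, released by platelets and stressed tissue, stood at 285, 132, 321 and 174 FPKM, and Thbs2, a fibroblast matrix protein, at 37.6, 19.7, 24.4 and 25.2 FPKM.

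Sox9 (ENSMUSG00000000567) varied least of the 8 genes, by the ratio of its highest to its lowest group. It was at 61.1, 33.4, 43.7 and 35.2 FPKM, 1.83-fold from the long-telomere wild type group to the long-telomere heterozygous group, with 0 of 5 calls. Unlike 7 of the 8 genes, it was lower in the short-telomere group labelled heterozygous than in the one labelled wild type, with a log2 fold of -0.31. Of 11 measured chondrocyte regulators and signals 0 were called, beside 0.415% to 0.686% of all genes over the 5 comparisons. In long-telomere heterozygous valves 10 of the 11 were lower than in wild type valves (median -0.30), beside 43.6% of all genes and their median of 0.092. The same number was lower with short telomeres in Notch1 wild type valves (median -0.77), beside 61.1% of all genes and their median of -0.23. Nfatc1, a transcription factor needed for valve formation, was at 38.8, 35.9, 22.4 and 26.1 FPKM. Pthlh, a secreted brake on chondrocyte maturation, was at 30.1, 26.1, 19.0 and 37.2 FPKM, and Foxc1, a forkhead factor of heart and skeletal development, at 21.7, 7.5, 21.3 and 14.6 FPKM. Sox5 and Sox6, the partners of Sox9 on cartilage genes, were at 4.12, 3.93, 3.21 and 2.03 FPKM and at 9.30, 6.01, 4.66 and 8.33 FPKM, and are named for that role.

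Of 10 measured cartilage collagens and matrilins 0 were called, against the same 0.415% to 0.686% of all genes. With long telomeres 9 of the 10 were lower in heterozygous than in wild type valves (median -0.35, beside 0.092 and 43.6% lower over all genes). The highest of them were Matn2, a matrilin that is widespread outside cartilage (26.2, 17.1, 33.7 and 17.0 FPKM), Col27a1, a fibrillar collagen of developing cartilage (10.6, 2.33, 9.86 and 1.67 FPKM) and Col11a2, which nucleates cartilage fibrils (10.9, 5.05, 0.948 and 1.11 FPKM). Col27a1 was lower in both groups labelled Notch1 heterozygous, and Col11a2 in both short-telomere groups. Among 10 other matrix genes known from chondrocytes, again with 0 calls and that background, Prelp, a heparin-binding leucine-rich repeat protein, stood at 929, 534, 937 and 598 FPKM. The secreted cytokine-like protein Cytl1 stood at 325, 172, 652 and 495 FPKM, and Fmod, a collagen-binding leucine-rich repeat protein, at 153, 108, 117 and 142 FPKM. All 3 had their lowest value in long-telomere heterozygous valves. In that comparison 8 of these 10 genes were lower (median -0.66), and between the short-telomere groups 5 were lower and 5 higher.

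With long telomeres, 7 of the 8 genes were lower in Notch1 heterozygous than in wild type valves, Hapln1 being the exception, with a median log2 fold of -1.31 beside 0.092 over all genes, or -0.84 relative to the interstitial and fibroblast list. The authors' deposited table called 0 of the 8, and 0.415% of all genes. The log2 folds were -2.22 for Cilp2, -2.01 for Cilp, -1.71 for Acan, -1.46 for Chad, -1.15 for Comp, -0.88 for Prg4 and -0.85 for Sox9. An FPKM ratio of at least 4 towards lower values was reached by 3 of the 8 genes, Acan, Cilp2 and Cilp, and by 5.02% of all genes, with 14.8% of all genes past that ratio in either direction. Among all genes 43.6% were lower. Smooth muscle markers were lower in 10 of 10 cases in the same comparison, with a summed level of 1293 against 290.4 FPKM and 5 called. Interstitial and fibroblast markers were lower in 13 of 14 (summed level 6865 against 5731 FPKM), tendon markers in 6 of 6 (summed level 710 against 441 FPKM) and mesothelial markers in 6 of 7 (54.4 against 17.5 FPKM, median -1.40). Scx, which defines tendon cells, was at 16.9 and 4.91 FPKM in these groups and was not at 0 in any. T cell and thymocyte markers were higher in 10 of 10 (131 against 1255 FPKM, 7 called) and platelet markers lower in 10 of 10 (3194 against 124 FPKM, 10 called). Heart muscle markers were higher in 8 of 10 (3955 against 4954 FPKM), while Myl7 was called lower. The part of these cells in the levels of the cartilage genes was not tested.

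Between the short-telomere groups, 7 of the 8 genes were higher in the one labelled Notch1 heterozygous than in the one labelled wild type, Sox9 being the exception. The median log2 fold was 0.46 beside 0.056 over all genes, and 53.5% of all genes were higher. The authors' deposited table called 0 of the 8, and 0.476% of all genes. Acan alone of the 8 was past an FPKM ratio of 4, as were 23.2% of all genes. Chad (1.47) and Acan (1.29) had the largest log2 folds, followed by Hapln1 (0.61), Cilp2 (0.52), Comp (0.40), Cilp (0.38) and Prg4 (0.12). The log2 fold of Prg4 turned to -0.0038 relative to the housekeeping list. Interstitial and fibroblast markers were higher in 6 of 14 (summed level 9153 in wild type against 7052 FPKM), smooth muscle markers in 2 of 10 (640 against 508 FPKM) and heart muscle markers in 10 of 10 (4263 against 6653 FPKM). Neutrophil markers were lower in 8 of 9 (1783 against 176 FPKM, 3 called), platelet markers in 10 of 10 (2065 against 406 FPKM, 8 called) and T cell and thymocyte markers in 10 of 10 (185 against 19.7 FPKM, 4 called). Mesothelial markers were lower in 7 of 7 (26.0 against 9.7 FPKM), and macrophage markers were higher in 8 of 9 (1434 against 2889 FPKM). The part of these cells was not tested here either.

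Short telomeres alone, in valves wild type for Notch1, went with lower values in 7 of the 8 genes. The median log2 fold was -0.63, or -0.40 relative to the median of -0.23 over all genes, of which 61.1% were lower. The authors' deposited table called 2 of the 8 genes, Cilp2 and Acan, both lower, and 0.686% of all genes, with 0.249% of all genes called lower. The same 2 genes and 25.9% of all genes were past an FPKM ratio of 4. Chad followed with a log2 fold of -1.40 and Cilp with -0.77, while Comp, Hapln1 and Sox9 lay at -0.49, -0.49 and -0.47. Prg4 was at 0.026, and took a negative sign when mitochondrial genes (-0.078) or also blood cell lists (-0.036) were left out of the scaling and relative to the housekeeping list (-0.098). Interstitial and fibroblast markers were lower in 8 of 14 and higher in 6 (median log2 fold -0.030, 1 called lower). Endothelial markers were higher in 8 of 10 with 0 called, and erythroid markers in 7 of 7 with 3 called. Smooth muscle markers were lower in 10 of 10 with 0 called, and neutrophil markers were higher in 9 of 9 (16.4 against 1783 FPKM, 6 called). Of these 9, Ly6g, Ngp and Camp were listed at 0 in long-telomere wild type valves. Mesothelial markers were lower in 6 of 7 (54.4 against 26.0 FPKM), and heart muscle markers were higher in 7 of 10 (3955 against 4263 FPKM, 0 called). Short-telomere wild type valves, the group of both called values, were the lowest of the 4 groups for 3 of the 8 genes, Acan, Hapln1 and Cilp2, beside 39.4% of the 15044 genes with a mean of at least 1 FPKM. This group had 2010 genes listed at 0, against 250 to 1181 in the other 3. Mitochondrially encoded genes took 14.4% of the summed FPKM in long-telomere and 32.5% in short-telomere wild type valves, and the median of the 8 genes was -0.73 with these genes left out of the scaling. The part of the other cells was not tested.

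**Figure D2:**
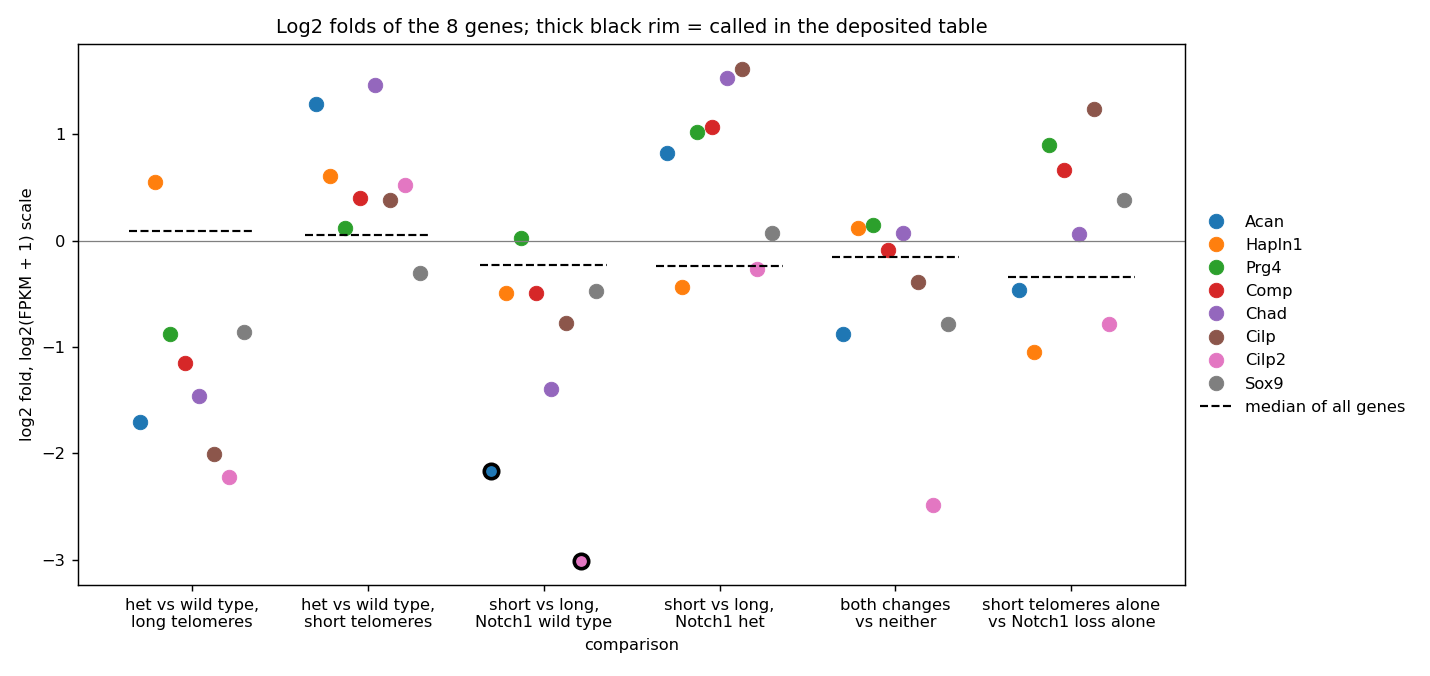
Log2 folds of the 8 genes on the log2(FPKM + 1) scale (vertical axis) in 6 comparisons of the 4 groups, with 1 point per gene and a dashed line at the median of all genes. Of the 8 points 7 lie below 0 with long telomeres and 7 above 0 with short telomeres in the Notch1 comparisons, and the rimmed points are Acan (-2.17) and Cilp2 (-3.01), the 2 called genes.

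Short telomeres on the Notch1 heterozygous background went with higher values in 6 of the 8 genes, while 64.9% of all genes were lower. The median log2 fold was 0.92 beside -0.24 over all genes, or 0.55 relative to the interstitial and fibroblast list, with 0 of the 8 and 0.432% of all genes called in the authors' deposited table, and 0 of the 8 and 19.3% of all genes past an FPKM ratio of 4. Cilp (1.62), Chad (1.53), Comp (1.06), Prg4 (1.02) and Acan (0.82) were higher. Sox9 was at 0.074, which turned to -0.30 relative to the interstitial and fibroblast list, and Cilp2 and Hapln1 were lower (-0.26 and -0.44). The long-telomere heterozygous group, the reference here, was the lowest of the 4 groups for 5 of the 8 genes and for 12.5% of the 15044 genes with a mean of at least 1 FPKM. Interstitial and fibroblast markers were higher in 12 of 14 in this comparison and endothelial markers in 10 of 10. T cell and thymocyte markers were lower in 10 of 10 (1255 against 19.7 FPKM, 9 called), with Ptcra listed at 0 in the short-telomere group. Platelet markers were higher in 9 of 10 (124 against 406 FPKM, 2 called), neutrophil markers in 9 of 9 (45.5 against 176 FPKM) and macrophage markers in 8 of 9 (1590 against 2889 FPKM). Heart muscle markers were higher in 9 of 10 (4954 against 6653 FPKM), with Nppa called higher. The mitochondrial share of the summed FPKM was 10.01% with long and 35.0% with short telomeres here. The part of these cells in the levels of the 8 genes was not tested.

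Between the group with both changes and the group with neither, 5 of the 8 genes were lower (median -0.24, beside -0.16 over all genes, and between -0.43 and -0.067 under other scalings). The authors' deposited table called 0 of the 8 and 0.526% of all genes, and Cilp2 with 20.7% of all genes was past an FPKM ratio of 4. Cilp2 stood apart at -2.49, followed by Acan (-0.88), Sox9 (-0.78) and Cilp (-0.39). Comp, Chad, Hapln1 and Prg4 lay between -0.089 and 0.14, and each of these 4 changed sign under at least 1 of the scalings tried. Smooth muscle markers were lower in 9 of 10 here (3 called), platelet markers in 10 of 10 (8 called), T cell and thymocyte markers in 10 of 10 (4 called) and mesothelial markers in 6 of 7. Neutrophil markers were higher in 9 of 9 (4 called), macrophage markers in 8 of 9 and heart muscle markers in 9 of 10. Their part was not tested. The groups with a single change, for which the table holds no call, were compared as well. Short-telomere wild type valves were above long-telomere heterozygous valves in 5 of the 8 genes (median 0.22, turning to -0.044 relative to the interstitial and fibroblast list), with Cilp at 1.24, Prg4 at 0.90 and Comp at 0.66, and below them in Hapln1 (-1.04), Cilp2 (-0.78) and Acan (-0.46). Chad was at 0.059 and turned to -0.21 relative to the interstitial and fibroblast list and to -0.0095 without mitochondrial genes in the scaling.

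For each gene the log2 fold of Notch1 heterozygous against wild type valves with long telomeres was subtracted from that with short telomeres, which gives 0 where the changes add up on this scale. The value was above 0 in 8 of 8 genes, with a median of 1.97 beside 0.0042 over all genes, of which 50.2% were above 0. Acan (2.99), Chad (2.93), Cilp2 (2.75) and Cilp (2.39) had the largest values, and that of Acan was 6.25 with a pseudocount of 0.1. Comp was at 1.56, Prg4 at 0.99 and Sox9 at 0.55. Hapln1 was at 0.053 and turned to -0.33 relative to the interstitial and fibroblast list. Among genes with a mean of at least 1 FPKM, values at or above that of Acan were found in 1.3%, that of Chad in 1.49%, that of Cilp2 in 1.83%, that of Cilp in 2.90%, that of Comp in 8.40% and that of Prg4 in 17.4%. For Sox9 and Hapln1 the shares were 29.2% and 47.9%, so their values were common among these genes. The spread between mice is unknown, so this difference was not tested. The same median was 0.86 for cartilage collagens and matrilins, 0.72 for chondrocyte regulators and signals and 0.87 for the other chondrocyte matrix genes. For aggrecanases and inhibitors it was 0.54, for hyaluronan and proteoglycan partners -0.033 and for chondroitin and keratan sulphate synthesis 0.26. It was 1.81 for smooth muscle markers, 0.997 for thrombospondins, 0.86 for tendon markers and 0.63 for endothelial markers. Interstitial and fibroblast markers had 0.26, mesothelial markers 0.29 and heart muscle markers 0.047. The median was 1.41 for platelet, 0.996 for macrophage, -0.29 for erythroid, -1.22 for melanocyte, -3.22 for neutrophil and -5.74 for T cell and thymocyte markers, and -0.39 for housekeeping genes. Among the heart muscle markers Nppa (6.10) and Myl7 (5.39), both typical of atrial muscle and named after their values were seen, had larger values than any of the 8 genes. Nppa was at 352, 43.4, 46.8 and 413 FPKM and Myl7 at 216, 13.0, 47.1 and 129 FPKM, high and low in the same groups as Chad, and their part in the levels of the 8 genes was not tested.

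**Figure D3:**
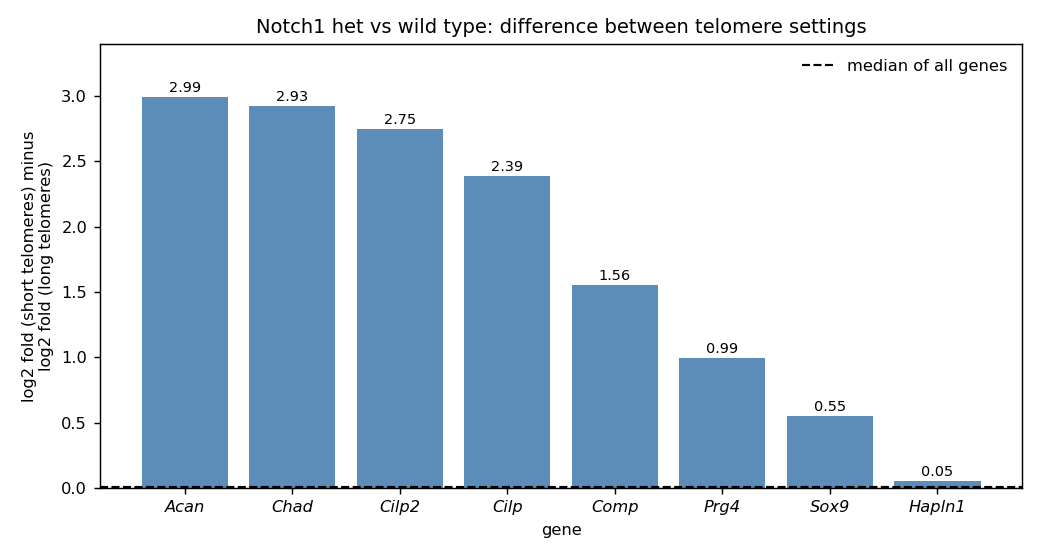
Difference between telomere settings in the Notch1 log2 fold (vertical axis, short minus long telomeres, log2(FPKM + 1) scale) for the 8 genes, with 1 bar per gene, a dashed line at the median of all genes and no error. Acan, Chad, Cilp2 and Cilp lie between 2.39 and 2.99, and Hapln1 lies at 0.053.

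The mean log2(FPKM + 1) of the 8 genes was 5.52, 4.31, 4.43 and 4.99 in the 4 groups. The interstitial and fibroblast list had means of 7.49, 7.01, 7.16 and 7.35, the same order of groups over a narrower range. The tendon list, at 4.75, 3.89, 4.23 and 4.54, had that order too, and shares Fmod and Thbs4 with lists named above. Smooth muscle markers were at 6.26, 3.92, 4.91 and 4.45, and endothelial markers at 4.90, 4.43, 5.33 and 5.48, with short-telomere wild type above long-telomere wild type valves. Tcf21, a factor of epicardium-derived fibroblasts, is named as the called marker of the interstitial list. It was at 26.2, 12.3, 1.01 and 20.1 FPKM, with its lowest value in the same group as Acan and Cilp2. In the authors' deposited table it fell with short telomeres in Notch1 wild type valves and was called higher in the short-telomere group labelled heterozygous than in the one labelled wild type. The rest of the list did not share this low value. With short telomeres in Notch1 wild type valves 8 of its 14 markers were lower and 6 higher (median log2 fold -0.030).

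**Figure D4:**
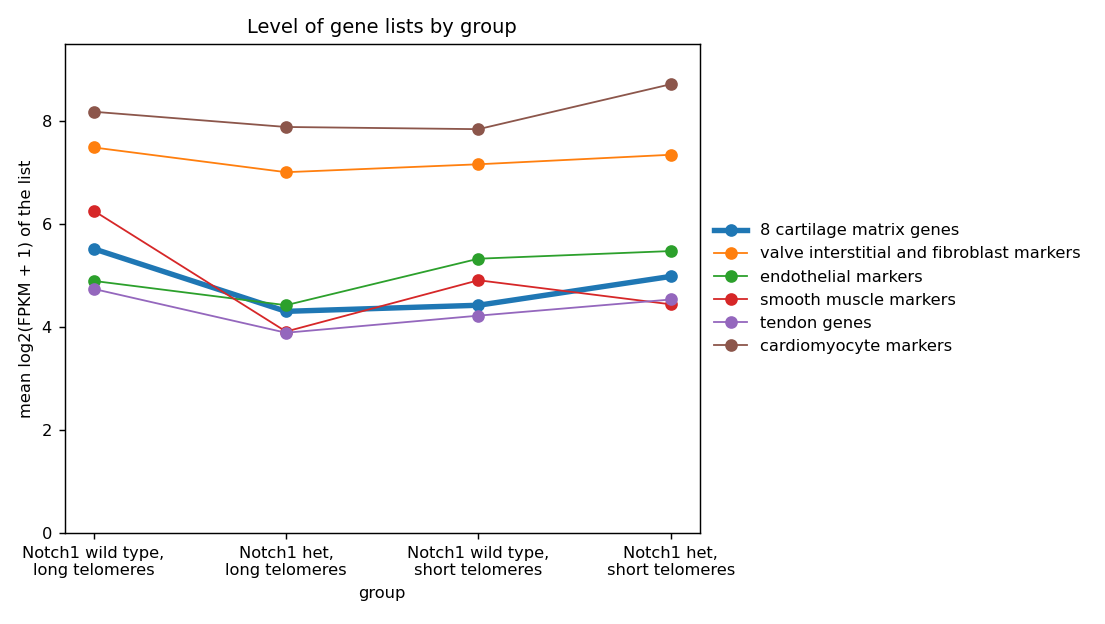
Mean log2(FPKM + 1) of gene lists (vertical axis) in the 4 groups, with 1 point per list and group, and lines that only join the points of a list. The 8 cartilage matrix genes (thick line) are highest at 5.52 in long-telomere wild type and lowest at 4.31 in long-telomere heterozygous valves, and smooth muscle markers span 3.92 to 6.26.

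The genes whose centred log2(FPKM + 1) values over the 4 groups were nearest to those of each member were sought among genes with a mean of at least 1 FPKM, as a description over 4 points. For Acan they were Slc2a8, RP23-177L19.1 and Calml4, with root mean square differences of 0.0533, 0.0605 and 0.0977. This closeness holds on the scale used, which flattens the low values of Acan. In FPKM Acan ranged from 0.0521 to 3.72 and Slc2a8 from 3.14 to 19.5. For Chad they were Pigz (0.0435), Nthl1 (0.119) and Nckipsd (0.127), and for Cilp they were Aoc3 (0.0629), SNORA1 (0.0964) and AC155307.1 (0.186). For Cilp2 they were AL772334.1, AL713875.1 and Tspyl5 (0.130, 0.131 and 0.140), all 3 listed at 0 in short-telomere wild type valves. For Comp they were Ephb4, Mcam and Clmn (0.0276, 0.0429 and 0.0665), and for Prg4 Arhgap18, 2310022B05Rik and Acsf2 (0.0321, 0.0336 and 0.0407). Hapln1 was nearest to Dnpep, Abl2 and Ppm1j (0.00901, 0.0177 and 0.0282), and Sox9 to 7SK, 4430402I18Rik and Ngfr (0.0201, 0.0207 and 0.0283). Within a difference of 0.2 there were 790 genes for Hapln1 and 466 for Sox9, against 21 for Acan, 14 for Cilp2, 11 for Chad and 3 for Cilp.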

How the data were processed

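RNA of 15 mice was amplified with the NuGen Ovation RNA-seq V2 kit, which does not keep the strand, and sequenced as paired-end reads of 100 bp, per the labels' protocols. The submitters' processing notes name TopHat, SAMtools, Picard, FastQC and mm9. How FPKM were estimated and genes called is not stated in any source used here. In the deposited table, 1 FPKM stands for each gene in each group, so the authors pooled or averaged libraries first. The authors' calls are deposited as other columns of 0 or 1. Columns 8 and 9 share a header and were assigned by the pair of groups in which each called gene had an FPKM ratio of at least 4. None of the 8 genes is called in either.

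Planned tests per library were replaced by description. Log2 folds used a pseudocount of 1. All members are named, with the 3 highest genes and all called genes of the cartilage lists and the 3 genes nearest in pattern to each member. Of the marker lists of other cell types, summed levels and few genes are given. The members and lists were chosen with earlier results of these data known. List genes were matched by symbol or identifier. Fold code was tested on simulated data. Exon lengths come from GENCODE M21 (GRCm38) and serve as a guide, since the build differs from mm9. Alternatives were a pseudocount of 0.1, other scalings, and an FPKM ratio of 4 in place of the calls. Depth per library, and so counting error, is unknown. Values were computed with pandas 2.3.3 and numpy 2.4.6 in Python 3.11.15 and drawn with matplotlib 3.10.9.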

Additional observations from a re-analysis of the deposited data

How the results depend on the processing

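No paired analysis was possible because the table holds 1 pooled value per group, and for the same reason no replicate could be left out. The medians of the 8 genes are given in this order: Notch1 heterozygous against wild type (long, then short telomeres), short against long (Notch1 wild type, then heterozygous), both changes against neither, and short telomeres alone against Notch1 loss alone. As deposited they were -1.31, 0.46, -0.63, 0.92, -0.24 and 0.22. A pseudocount of 0.1 gave -1.32, 0.52, -0.65, 1.05, -0.25 and 0.22. Relative to the median of all genes they were -1.40, 0.41, -0.40, 1.16, -0.083 and 0.56. Scaling without mitochondrial genes gave -1.34, 0.49, -0.73, 0.90, -0.31 and 0.15. Relative to the interstitial and fibroblast list they were -0.84, 0.54, -0.60, 0.55, -0.067 and -0.044, with a turned sign in the last. Relative to the housekeeping list they were -1.76, 0.34, -0.76, 0.98, -0.43 and 0.27. Leaving blood cell lists out of the scaling as well, chosen after seeing the data, gave -1.39, 0.44, -0.69, 0.92, -0.33 and 0.24. All 8 genes have a mean of at least 1 FPKM, so that filter changed no median. The median difference between telomere settings, 1.97, was 2.04 with a pseudocount of 0.1, 2.01 relative to all genes, 2.04 without mitochondrial genes, 1.59 relative to the interstitial list, 2.30 relative to the housekeeping list and 2.03 without blood cell lists. These alternatives for the difference were added after seeing the data. Acan rests on low values, and its difference went from 2.99 to 6.25 with a pseudocount of 0.1. An FPKM ratio of at least 4 in place of the authors' calls gave 3, 1, 2, 0 and 1 genes for the first 5 comparisons, against 0, 0, 2, 0 and 0 calls; the last has no call column. Of 288 values of single genes under the alternatives, 275 kept their sign and 13 did not, none of them of Acan, Cilp or Cilp2 or of a called value.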

Other observations

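Enzymes and carriers that build chondroitin and keratan sulphate chains, the sugars of aggrecan went both ways. Of 18 measured genes 0 were called in the authors' deposited table in 5 comparisons, in which 0.415% to 0.686% of all genes were called, so a count of 0 is near the background. In long-telomere heterozygous against wild type valves 9 were higher and 9 lower, with a median log2 fold of 0.0092. They ranged there from -1.53 for Chst12, a chondroitin sulfotransferase, to 1.57 for Slc35d1, a carrier of nucleotide sugars. Papss2, which makes the sulphate donor in cartilage, stood at 48.9, 37.7, 134 and 61.5 FPKM in long-telomere wild type, long-telomere heterozygous, short-telomere wild type and short-telomere heterozygous valves, highest in the group where Acan was lowest. Chsy1, a chondroitin synthase, stood at 42.4, 52.8, 44.7 and 64.2 FPKM, and Papss1, which also makes the sulphate donor, at 11.6, 11.4, 14.0 and 21.0 FPKM, both highest in short-telomere heterozygous valves.

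Among 4 measured bone cell genes Spp1, which encodes osteopontin, was at 8.18, 8.35, 8.63 and 130.2 FPKM in the same order. The authors' deposited table called Spp1 higher in short-telomere heterozygous valves than in long-telomere heterozygous valves and than in the group with neither change. In these comparisons 0.432% and 0.526% of all genes were called. Between the short-telomere groups Spp1 was not called, at a log2 fold of 3.77. Bglap2, Alpl and Phex, the other genes of this list, had no call.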
